A study of Homo sapiens with 5 samples.

Results

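Keratin genes were followed across the nuclei of a mixture of 5 lung adenocarcinoma cell lines. The 10 members, KRT8, KRT18, KRT7, KRT19, KRT17, KRT81, KRT86, KRT80, KRT6A and KRT15, were taken by gene symbol from the 36601 genes of the count matrix, which holds 55 annotated keratin genes in all. All 10 members reached 10 CPM (UMIs per 1000000 UMIs, where a UMI is a counted RNA molecule) in at least 1 group of nuclei. Of the 55 keratin genes 12 did so, the other two being KRT4 and KRT10, and 18 had no count in the groups compared.

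Keratins are the intermediate filament proteins of epithelial cells. A filament is built from pairs in which a type I chain joins a type II chain, and chains left without a partner are degraded. KRT8 and KRT18 form the basic pair of simple epithelia, KRT7 and KRT19 are typical of glandular and ductal epithelia, KRT17, KRT6A and KRT15 belong to basal or stressed stratified epithelia, and KRT81 and KRT86 are hair keratins. Carcinomas largely keep the keratins of the epithelium they come from, which is why keratin patterns are used to classify them.

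A549, HCC827, H838, H1975 and H2228, untreated adenocarcinoma lines each grown in its own culture, were frozen, mixed and taken through a nuclei preparation. With the 10x Multiome assay, RNA and open chromatin (ATAC) were read under the same barcode in each nucleus, and the barcoded droplets were divided into an 80% and a 20% portion. Each portion gave 1 RNA and 1 ATAC library, so there was no replicate of any line, no difference carries a test, and intervals at 95% cover counting error only. The 80% matrix held 6557 nuclei and the 20% matrix 1286, and 159 barcodes occurred in both. The nuclei carried no line label here. They were grouped by their RNA with every keratin gene left out of the clustering, which gave 7 clusters in the 80% library.

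Clusters 0 to 5 held 2379, 1451, 1407, 486, 368 and 333 nuclei, with median depths between 9034 and 17693 UMIs per nucleus. Cluster 6, with 133 nuclei of which 99.2% were called doublets, was left out of the comparisons after its doublet calls had been seen. Doublet calls made up 14.8% of cluster 3 and between 0.551% and 6.91% of the other 5. The nuclei of the 20% library were assigned to the cluster with the most similar mean profile, which placed 495, 293, 258, 92, 63 and 54 nuclei in clusters 0 to 5. Cluster 2 is called A549-like, since all 7 A549 markers, among them ALDH1A1 at 5626 CPM, were highest there. Cluster 5 is called HCC827-like, since EGFR at 7141 CPM and its neighbours SEC61G, VOPP1 and LANCL2 were highest there. The other 4 clusters were not assigned to a line. Their leading genes, by the excess over the next cluster, were MALAT1 in cluster 0, LDHB in cluster 1, HSP90AA1 in cluster 3 and PVT1 in cluster 4. Clusters 3 and 4 were joined when only 5 clusters were asked for. The epithelial markers EPCAM, CDH1, CLDN4, CLDN7, ESRP1 and CDH3 were highest in clusters 3 and 5. Of the markers of cells that the cultures should lack, CD3E, LYZ, PTPRC, VWF and CDH5 stayed under 2 CPM in clusters 0 to 5, CD79A reached 10.1 CPM in cluster 3 and PECAM1 14.9 CPM in cluster 4.

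All 10 members were unevenly distributed over the clusters. In 10 of 10 the highest cluster was at least 4 times the lowest, against 32.1% of the 12609 genes that reached 10 CPM in some cluster. The median of this ratio was 11.5 for the members and 2.61 for all those genes. Outside the members, the ratio was 103 for KRT4 and 2.17 for KRT10. The members were chosen with earlier results of these data known, so the comparison is a description. KRT6A reached 10 CPM in the 80% library only through 19 nuclei of cluster 0, as given below. Expression in mainly 1 cluster was less common. In 2 of 10 members, KRT81 and KRT17, the highest cluster was at least 4 times the next, against 5.86% of all genes tested. The count of KRT17 lay at the threshold, as given below, and the ratio of KRT86 over its lowest cluster, 4.06, fell to between 3.66 and 3.96 in 3 other clusterings. The cluster that was highest in the 80% library was also highest in the 20% library for 9 of 10 members, against 74.9% of all 12609 genes tested, and the lowest cluster was the same for 8 of 10, against 61.5%. UMIs were not scaled for transcript length, so levels are compared mainly between clusters. Where genes are set beside each other, as in shares of keratin UMIs, the values are not corrected for length.

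**Figure D1:**
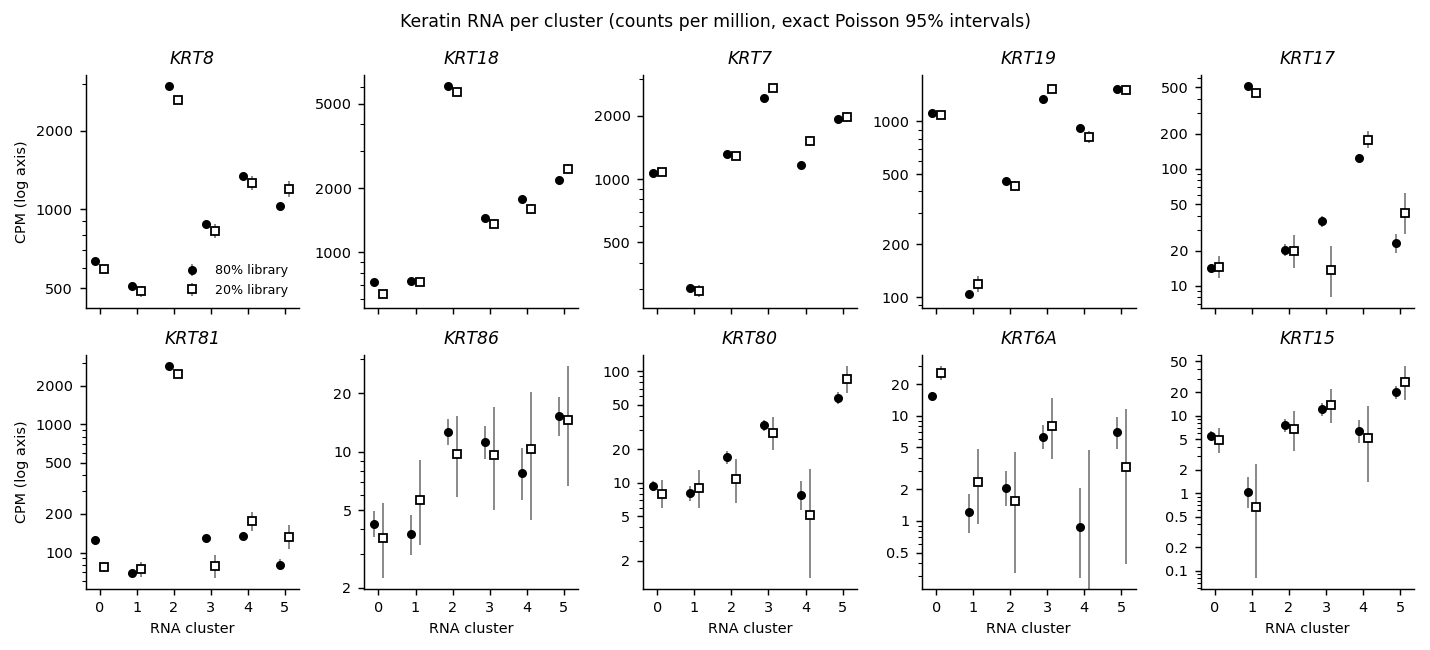
CPM of each member (vertical log axes, which differ between panels) in RNA clusters 0 to 5 (horizontal axes), with filled circles for the 80% library, open squares for the 20% library and exact Poisson 95% intervals as bars. KRT81 rose to 2827 CPM in cluster 2 against at most 134 CPM elsewhere, KRT17 peaked at 510 CPM in cluster 1, and KRT6A, with no UMI in cluster 4 of the 20% library, has no symbol there.

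KRT8 (ENSG00000170421, type II, chr12:52897187-52949954, minus strand) was highest in the A549-like nuclei. Its level in clusters 0 to 5 was 638, 512, 2952, 881, 1337 and 1031 CPM. The level in cluster 2 (95% interval 2923 to 2981) was 2.21 times that in the next cluster, and cluster 1 was lowest. In the 20% library the values were 595, 486, 2614, 829, 1262 and 1199 CPM, with the same highest and lowest cluster.

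KRT18 (ENSG00000111057, type I, chr12:52948871-52952906, plus strand) lies beside its partner and is the only type I keratin gene on chromosome 12. It measured 726, 728, 6061, 1450, 1770 and 2186 CPM in clusters 0 to 5. The A549-like nuclei were again highest, at 2.77 times the HCC827-like nuclei, and clusters 0 and 1 were lowest with overlapping intervals. The 20% library gave 632, 720, 5679, 1362, 1594 and 2465 CPM. The annotated span of KRT8 covers the start of KRT18 on the other strand. The sources used here do not say whether strand entered the counting, so a share of the reads of this pair may have been exchanged.

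Within clusters, KRT8 and KRT18 varied together from nucleus to nucleus. With each nucleus thinned to 5000 UMIs, Pearson's r of their log values was 0.26, 0.29, 0.72, 0.35, 0.45 and 0.60 in clusters 0 to 5, over 2354, 1432, 1375, 483, 356 and 323 nuclei. These nuclei share 1 library, and the value is a description. At full depth in cluster 2, KRT8 was the gene most similar to KRT18 among the 9561 genes found in at least 10% of nuclei, with r = 0.81. S100A10, which encodes a membrane-associated calcium-binding protein family member, came next with r = 0.37. The correlation was weakest in clusters 0 and 1, where both genes were also lowest.

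At the chromatin level, the start of KRT8 carried 43.3, 29.5, 76.0, 57.3, 34.7 and 51.8 ATAC counts per 1000000 ATAC counts of the cluster (ATAC CPM), and the start of KRT18 36.3, 17.5, 73.2, 62.1, 37.3 and 59.9. Only peaks within 1000 bp of the canonical start were summed. Both peaks summed for KRT18 also overlapped exons of KRT8, so their counts cannot be given to KRT18 alone. Both sums were highest in cluster 2 and lowest in cluster 1, but over a narrower range than the RNA, with 2.58 times for KRT8 and 4.17 times for KRT18 between the extremes. The peaks summed for KRT18 differed. The larger, with 1552 counts, was highest in cluster 3 at 38.1 ATAC CPM and held 25.6 in cluster 2. The smaller, with 1171 counts, was highest in cluster 2 at 47.6. Cluster 4 stood second in KRT8 RNA and next to last in accessibility at its start. Its accessibility interval there (26.8 to 44.1) overlapped those of clusters 0 and 1. The 20% library, whose peaks were called separately, placed KRT18 highest in cluster 2 at 106. It placed KRT8 highest in cluster 3 at 83.9 (interval 60.9 to 112.6) against 73.7 in cluster 2 (58.0 to 92.3). In that library KRT8 in cluster 4 stood at 59.2 (35.9 to 91.9) on 39 counts, above clusters 0, 1 and 5. The KRT8 intervals of clusters 2 and 3 overlapped, and that of cluster 4 overlapped all others. Neither order is thus resolved in the 20% library.

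The peak with the most counts near KRT8 lay in an intron, 21938 bp upstream of the canonical start, at chr12:52927014-52927916. It carried 80.3 ATAC CPM in cluster 2 and between 21.8 and 43.8 elsewhere. RefSeq places a start of KRT8 beside it, and KRT8 was 1 of the 10 members in the RefSeq promoter table (GRCh38.p14) and the only match. A peak 2733 bp upstream of KRT18, at chr12:52945487-52946385, showed 47.3 ATAC CPM in cluster 2 and between 3.96 and 23.9 elsewhere. Their central 300 bases (hg38, plus strand, chr12:52927315-52927614 and chr12:52945786-52946085) and the 250 bases before the RefSeq start (minus strand, chr12:52926470-52926719) are shown because these peaks were highest in the A549-like nuclei and the RefSeq start lies beside the larger of them. They were chosen after their values were seen. Not every peak in KRT8 was highest in cluster 2. A peak at chr12:52907776-52908723, with 1047 counts, carried 26.5 ATAC CPM in cluster 4 and 10.4 in cluster 2. Capitals mark matches on either strand to TGANTCA (AP-1), AACCNGTT (grainyhead), GGGCGG (GC box) or TGTTTAC (forkhead), which do not overlap each other in the sequences printed.
KRT8 intronic peak: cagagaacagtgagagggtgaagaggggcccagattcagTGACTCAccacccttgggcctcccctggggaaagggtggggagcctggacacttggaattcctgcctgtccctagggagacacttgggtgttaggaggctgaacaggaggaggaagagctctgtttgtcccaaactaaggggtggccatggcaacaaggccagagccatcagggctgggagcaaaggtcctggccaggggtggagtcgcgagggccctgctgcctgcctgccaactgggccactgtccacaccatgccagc
KRT8 RefSeq promoter: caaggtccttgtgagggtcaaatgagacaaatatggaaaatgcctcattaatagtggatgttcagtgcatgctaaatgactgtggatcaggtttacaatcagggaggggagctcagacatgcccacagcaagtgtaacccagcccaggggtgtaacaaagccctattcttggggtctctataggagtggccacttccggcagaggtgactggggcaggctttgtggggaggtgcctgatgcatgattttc
KRT18 upstream peak: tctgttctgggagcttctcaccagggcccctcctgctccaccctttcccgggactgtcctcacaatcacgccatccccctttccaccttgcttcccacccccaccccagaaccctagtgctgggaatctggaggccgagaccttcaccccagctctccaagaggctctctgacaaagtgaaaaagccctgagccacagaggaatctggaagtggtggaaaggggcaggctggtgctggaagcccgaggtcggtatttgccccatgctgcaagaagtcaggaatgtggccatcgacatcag
The KRT8 intronic peak held 1 AP-1 match, a motif found in the central 300 bases of 33.8% of all 158289 peaks read. The other two sequences held no match. The remaining motifs occurred in 2.08% (grainyhead), 16.7% (GC box) and 5.28% (forkhead) of these peaks, and in 1.49%, 42.6% and 2.98% of the 35116 promoters of 250 bases, of which 6.57% held the AP-1 letters.

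KRT7 (ENSG00000135480, type II, chr12:52232520-52252186, plus strand), a keratin of simple glandular epithelia used as a marker of lung adenocarcinoma, was lowest in cluster 1. It measured 1067, 302, 1324, 2428, 1162 and 1938 CPM in clusters 0 to 5, and 1082, 292, 1293, 2713, 1518 and 1976 CPM in the 20% library. Cluster 3 led and the HCC827-like cluster 5 followed, at a ratio of 1.25. These are also the clusters with the highest EPCAM and CDH1. After thinning, a KRT7 UMI was found in 72.8% of cluster 1 nuclei and in 92.9% to 99.3% of the others. Accessibility at the start was 13.02, 9.62, 32.4, 31.1, 19.2 and 37.5 ATAC CPM, highest in cluster 5 rather than 3, with overlapping intervals among clusters 2, 3 and 5. In the 20% library cluster 5 fell to 19.5 and cluster 2 led at 45.4.

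Peaks of KRT7 away from the canonical start differed in pattern. The largest, 10541 bp downstream with 1169 counts, lay within 1000 bp of another annotated transcript start. It carried 21.7, 8.02, 18.3, 24.2, 18.6 and 18.4 ATAC CPM in clusters 0 to 5. The next, 2273 bp upstream with 822 counts, was highest in clusters 3 and 0, at 19.7 and 17.3. A smaller intronic peak, picked for its pattern after its values were seen, lay at chr12:52235716-52236605 2473 bp from the start. It had 2.22, 0.321, 4.99, 16.95, 2.63 and 10.8 ATAC CPM in clusters 0 to 5, with 280 counts in all. Its central 300 bases (hg38, plus strand, chr12:52236011-52236310) held none of the 4 motifs.
KRT7 intronic peak: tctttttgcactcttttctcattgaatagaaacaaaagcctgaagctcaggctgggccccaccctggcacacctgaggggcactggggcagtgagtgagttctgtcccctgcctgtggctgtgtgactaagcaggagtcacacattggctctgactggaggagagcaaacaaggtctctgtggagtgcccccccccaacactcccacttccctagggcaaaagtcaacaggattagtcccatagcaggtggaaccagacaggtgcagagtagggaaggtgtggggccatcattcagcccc

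KRT19 (ENSG00000171345, type I, chr17:41523617-41528308, minus strand), a small keratin without the usual tail domain, gave the closest match of RNA and chromatin. Its RNA was 1124, 104 (interval 99.9 to 109), 456, 1339, 918 and 1536 CPM in clusters 0 to 5. Accessibility at its start was 16.04, 0.642, 7.996, 20.3, 10.2 and 33.0 ATAC CPM. The 6 clusters stood in the same order in both measures. The value in cluster 1 rested on 6 ATAC counts. Counting 2 counts as 1 fragment, cluster 5 was at 51.8 times cluster 1, with a counting interval of 16.96 to 257. The 20% library repeated the low value of cluster 1 (119 CPM of RNA and, on 2 counts, 1.04 ATAC CPM). It placed cluster 3 at 1539 CPM of RNA just over cluster 5 at 1504 CPM, so the order of this pair differed between libraries. Not every peak near the gene followed this order. A peak 1579 bp upstream carried 13.8 ATAC CPM in cluster 1 and between 14.4 and 24.7 in the others.

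In the HCC827-like nuclei the genes most similar to KRT19 were other members. At full depth, the first 3 across the 333 nuclei of cluster 5, among 10529 genes, were KRT8 (r = 0.64), KRT18 (r = 0.64) and KRT7 (r = 0.56). In cluster 3, also at full depth, the gene most similar to KRT7 was KRT19 (r = 0.44), followed by TUBA4A (r = 0.36) and CAV1 (r = 0.36), which encode a tubulin and the caveolar coat protein. After thinning, r of KRT7 and KRT19 was 0.39, 0.02, 0.03, 0.37, 0.08 and 0.41 in clusters 0 to 5. The pair thus varied together in clusters 0, 3 and 5 and hardly in the others.

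KRT17 (ENSG00000128422, type I, chr17:41619442-41624842, minus strand), a keratin of basal cells and of injured or stressed epithelium, marked cluster 1, in which most other members were lowest. Its level was 14.3, 510, 20.4, 35.6, 125 and 23.3 CPM in clusters 0 to 5. Cluster 1 was at 4.09 times cluster 4 and further above the remaining 4 clusters. In the 20% library the values were 14.5, 444, 20.0, 13.7, 178 and 42.1 CPM, and the ratio of cluster 1 to cluster 4 was 2.49. It was 3.83 without doublet calls, 3.62 as the mean of each nucleus's own CPM and 2.05 against cluster 6, so KRT17 passes as a gene of 1 cluster only in some of the settings. Accessibility at its start was 2.87, 23.7, 2.16, 1.70, 9.71 and 4.03 ATAC CPM, also highest in clusters 1 and 4. Cluster 1 also led in the 20% library at 43.6. There cluster 5 at 15.02 and cluster 4 at 12.1 rested on 10 and 8 ATAC counts. Their intervals overlapped, so their order is not resolved. KRT17 shares near-identical stretches with KRT14 and KRT16, so the division of reads among them is uncertain.

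KRT17 was also uneven within cluster 1. After thinning, 61.5% of the 1432 nuclei (interval 58.9 to 64.0) carried a UMI, and the tenth of nuclei with the most held 48.1% of the UMIs, with up to 47 in a nucleus. For KRT18 in the same nuclei that share was 25.2%. In cluster 4, 34.3% of nuclei carried a KRT17 UMI, and in the other 4 clusters 6.502% to 9.38%. The genes most similar to KRT17 in cluster 1, MFAP5, IGFBP7 and CDKN1C, reached r of 0.25, 0.24 and 0.24, which is weak.

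**Figure D2:**
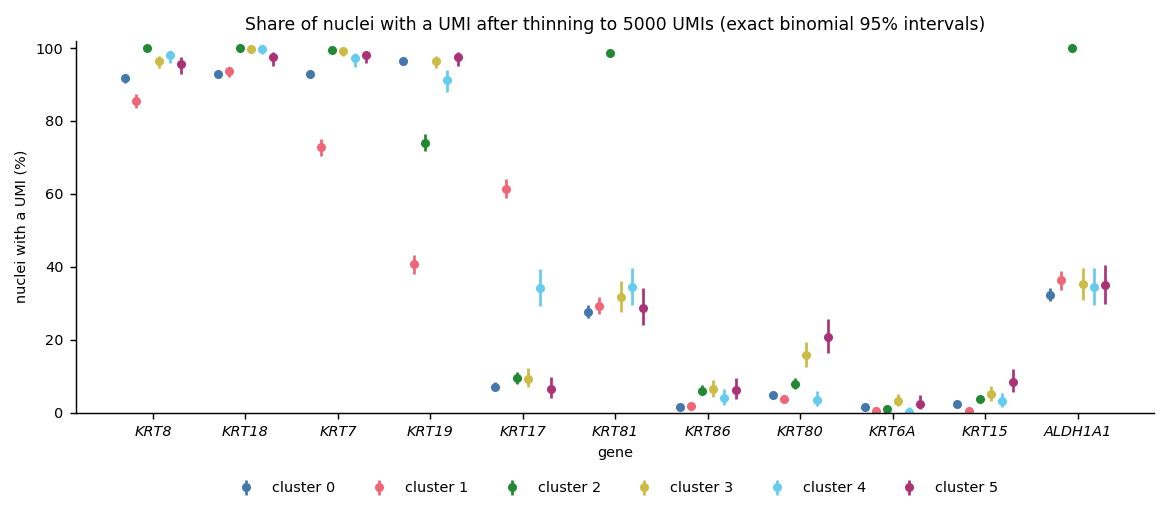
Percent of nuclei with at least 1 UMI of each gene after thinning every nucleus to 5000 UMIs (vertical axis), for the 10 members and ALDH1A1 (horizontal axis), with 1 colour for each of clusters 0 to 5 and exact binomial 95% intervals as bars. KRT81 and ALDH1A1 both stood near 100% in cluster 2 and between 27.7% and 36.2% in every other cluster, whereas KRT17 was found in 61.5% of cluster 1 and 34.3% of cluster 4.

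KRT81 (ENSG00000205426, type II, chr12:52285913-52291534, minus strand), a keratin of the hair cortex, was the member most limited to 1 cluster. It measured 124, 68.9, 2827, 130, 134 and 80.5 CPM in clusters 0 to 5, so the A549-like nuclei were at 21.1 times the next cluster. In the 20% library the values were 77.7, 74.2, 2474, 78.2, 175 and 133 CPM, with a ratio of 14.1. A UMI was found in 98.7% of thinned cluster 2 nuclei (interval 97.9 to 99.2), with 14.3 UMIs on average, and in 27.7% to 34.6% of the nuclei of the other clusters. That lower share is close to the 32.4% to 36.2% for ALDH1A1, the leading gene of cluster 2. The level of KRT81 in the other clusters was 2.44% to 4.73% of that in cluster 2, and that of ALDH1A1 1.57% to 3.67%. KRT81 was thus at or below ALDH1A1 in its share of nuclei in each of the other 5 clusters. Its level there was above that of ALDH1A1 only as a percent of cluster 2. In CPM it was below ALDH1A1 in each of them, where ALDH1A1 measured 88.0 to 207 CPM. Without doublet calls, KRT81 measured 2864 CPM in cluster 2, which was 30.97 times the next cluster. The highest KRT81 level outside cluster 2 was thus lower than with doublet calls kept. Whether the remaining KRT81 UMIs outside cluster 2 came from those nuclei, from free RNA or from doublets not called was not tested. The corresponding levels of KRT8 were 17.3% to 45.3% of cluster 2. In cluster 2 the gene most similar to KRT81 was KRT7, with r = 0.29 at full depth, and its r with KRT18 at the same depth was 0.17.

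The large RNA difference of KRT81 had no called peak at its start. No peak lay within 1000 bp of the canonical start of KRT81 or of KRT86 in either library, so accessibility there is not given. The nearest peak to KRT81, in the gene 2686 bp downstream of the start at chr12:52287934-52288848, overlapped an exon. It carried 1.78, 0.855, 10.6, 5.70, 6.83 and 3.02 ATAC CPM in clusters 0 to 5, with 245 counts in all, so cluster 2 led but by 1.56 times over the next. Its central 300 bases (hg38, plus strand, chr12:52288241-52288540) are shown because this was the only peak in the gene, and they held none of the 4 motifs.
KRT81 gene-body peak: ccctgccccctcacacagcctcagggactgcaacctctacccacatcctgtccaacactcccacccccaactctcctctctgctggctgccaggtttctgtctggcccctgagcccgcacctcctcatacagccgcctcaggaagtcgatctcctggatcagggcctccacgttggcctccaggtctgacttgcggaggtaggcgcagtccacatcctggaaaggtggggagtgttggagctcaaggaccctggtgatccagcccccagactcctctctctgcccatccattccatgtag

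KRT86 (ENSG00000170442, type II, chr12:52249300-52309163, plus strand) is a hair keratin whose annotated span covers KRT81 on the opposite strand and reaches into KRT7. It was low, at 4.27, 3.77, 12.6, 11.2, 7.79 and 15.3 CPM in clusters 0 to 5, with 635 UMIs in all. The intervals of clusters 2, 3 and 5 overlapped. KRT86 did not share the maximum of KRT81 in cluster 2, where a KRT86 UMI was found in 6.04% of nuclei against 1.66% to 6.42% elsewhere. The 2 genes are close copies, so reads that fit both may be missing or misplaced. An intronic peak 6156 bp from the canonical start of KRT86, at chr12:52280801-52281246, carried 29.02, 23.4, 55.1, 32.8, 29.1 and 21.1 ATAC CPM and was highest in cluster 2.

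KRT80 (ENSG00000167767, type II, chr12:52168996-52192014, minus strand), a keratin of many epithelia, had its highest levels in the clusters with the highest EPCAM. It measured 9.31, 8.06, 16.9, 33.0, 7.79 and 58.0 CPM in clusters 0 to 5, and 8.002, 9.02, 10.8, 28.2, 5.16 and 85.9 CPM in the 20% library. The HCC827-like cluster 5 was highest and cluster 3 second in both. Its start was open throughout, at 48.2, 33.7, 47.1, 61.8, 34.9 and 54.4 ATAC CPM, a range of 1.83 times against 7.45 times in RNA.

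KRT15 (ENSG00000171346, type I, chr17:41513745-41522529, minus strand), a basal keratin, was low and highest in cluster 5. Its values were 5.49, 1.05, 7.53, 12.2, 6.37 and 20.0 CPM, and in the 20% library 4.90, 0.668, 6.67, 13.7, 5.16 and 27.5 CPM. Cluster 1 was lowest in both. The peak at the canonical start carried at most 7.88 ATAC CPM. A larger peak 2601 bp upstream, at chr17:41521491-41522378, overlapped an exon of KRT15 and lay within 1000 bp of another annotated transcript start. It held 37.8, 5.03, 29.9, 42.5, 23.6 and 60.9 ATAC CPM. Clusters 5, 3 and 1 were placed as in the RNA, but cluster 0 stood above clusters 2 and 4 and was below both in RNA.

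KRT6A (ENSG00000205420, type II, chr12:52487176-52493257, minus strand), a partner of KRT16 and KRT17 in activated keratinocytes, came from a few nuclei. Its level was 15.6, 1.20, 2.07, 6.29, 0.885 and 6.94 CPM in clusters 0 to 5, and 25.6 CPM in cluster 0 of the 20% library. In cluster 0 a KRT6A UMI was found in 70 of 2379 nuclei. Of the 612 UMIs, 527 (86.1%) lay in 19 nuclei with at least 10 each, and the highest nucleus held 87. Without these 19 nuclei the level of cluster 0 was 2.18 CPM, below clusters 3 and 5. The 20% library showed the same form, with 131 of 157 UMIs (83.4%) in 5 of 495 nuclei. No nucleus of another cluster reached 10 UMIs in either library. Of the 19 nuclei 1 was called a doublet, and their median depth was 18600 UMIs against 15222 in the 2309 cluster 0 nuclei without KRT6A. KRT6B and KRT6C, close copies of KRT6A, had no UMI in the 19 nuclei, and KRT6C had 1 UMI in the 5 nuclei of the 20% library.

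**Figure D3:**
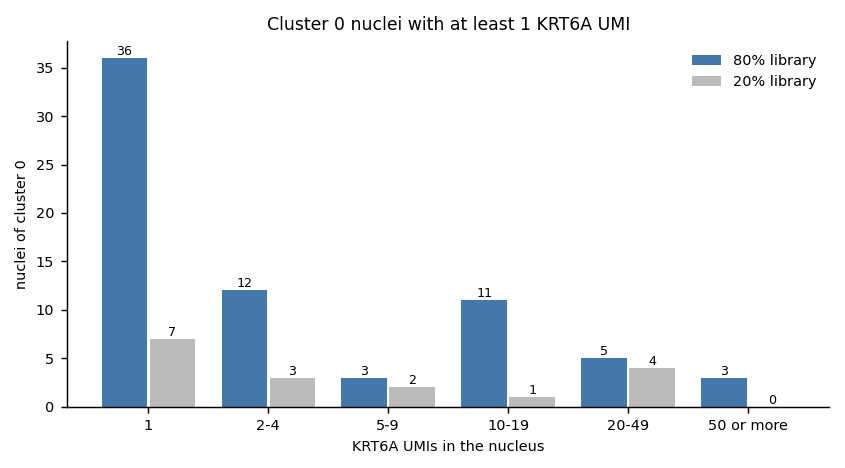
Number of cluster 0 nuclei (vertical axis) by their KRT6A UMIs (horizontal axis), for the 80% library in blue and the 20% library in grey, with counts above the bars and nuclei without a UMI left out. Nuclei with 1 UMI were the largest class in both libraries (36 and 7), and 19 and 5 nuclei had at least 10.

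Those 19 nuclei also differed in KRT19. KRT19 stood at 2975 CPM against 1099 CPM in the cluster 0 nuclei without KRT6A, and in the 5 nuclei of the 20% library at 3950 against 1052 CPM. KRT7 was 1423 against 1062 CPM in the 80% library and 923 against 1079 CPM in the 20% library, so its direction differed. KRT8 was 680 against 636 CPM and KRT18 830 against 724 CPM. KRT17, with 16 UMIs in 4 of the 19 nuclei, was 42.3 against 14.1 CPM, but 14.4 against 14.3 CPM in the 20% library. KRT15 was 21.2 against 5.33 CPM on 8 UMIs, and KRT80 had no UMI in the 19 nuclei. KRT16 had 8 UMIs in the 19 nuclei and none in the 5. These nuclei were chosen by KRT6A after its values were seen, and the values are a description.

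Summed over all keratin genes, the clusters held 3867, 2521, 13992, 6468, 5618 and 7058 CPM. The share of these UMIs on type I genes was 51.8%, 64.5%, 48.8%, 46.0%, 52.8% and 55.6%. The share thus stayed within 46.0% to 64.5% while the total varied between 2521 and 13992 CPM. In the 20% library it was 50.8%, 64.0%, 49.9%, 45.4%, 47.9% and 55.3%. The genes behind the share differed. KRT18 made up 43.3%, KRT8 21.1% and KRT81 20.2% of the keratin UMIs in cluster 2. KRT7 made up 37.5% in cluster 3 and KRT19 29.1% in cluster 0. In cluster 1 KRT17 made up 20.2%, below KRT18 at 28.9% and KRT8 at 20.3%. Without KRT8 and KRT18 the type I share was 51.0%, 70.0%, 15.5%, 36.9%, 47.7% and 45.3%. UMIs count nuclear RNA and not protein chains, and these shares between genes were not scaled for transcript length.

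**Figure D4:**
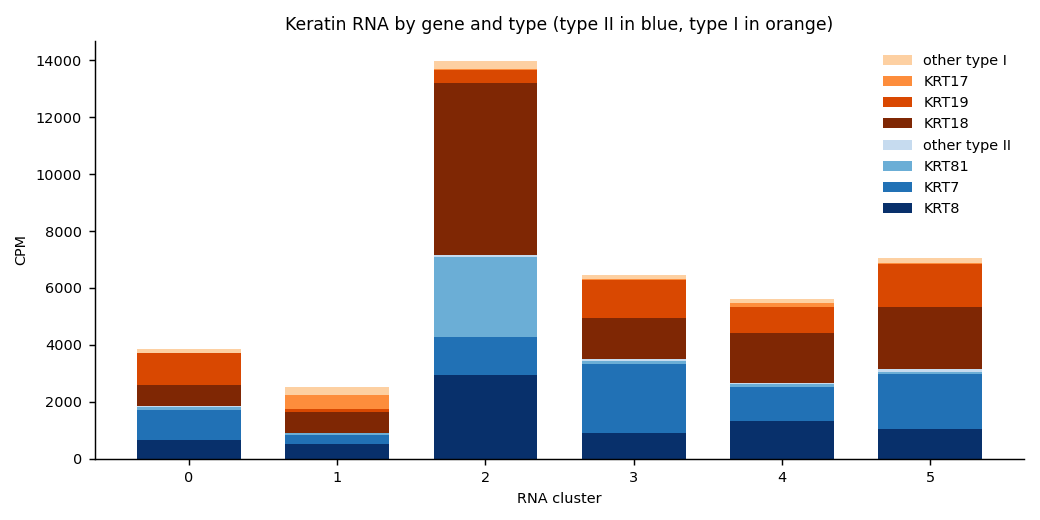
Stacked bars of the CPM of keratin genes (vertical axis, from 0) in RNA clusters 0 to 5 of the 80% library (horizontal axis), with type II genes in blue and type I genes in orange. The bars reach from 2521 CPM in cluster 1 to 13992 CPM in cluster 2, and the type I part stays between 46.0% and 64.5%.

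Of the 6 members with at least 10 ATAC CPM at the start, 4 (KRT8, KRT18, KRT19 and KRT17) had their highest RNA and their highest start accessibility in the same cluster. The same held for 48.1% of the 11319 genes tested in this way. KRT7 and KRT80 did not. For KRT18 the match held for its summed peaks, while the larger of them was highest in cluster 3. In the 20% library the count was 2 of 7 members, against 40.1% of all genes tested there. It was 5 of 7 with peaks at any annotated transcript start (48.7% of all genes). With all peaks within 5000 bp or in the gene it was 7 of 10 (50.5%). At 5 ATAC CPM it was 4 of 8 (48.3%), since KRT6A and KRT15 then entered and neither matched. Scaled to the counts of peaks at starts it was 3 of 8 (49.8%).

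**Figure D5:**
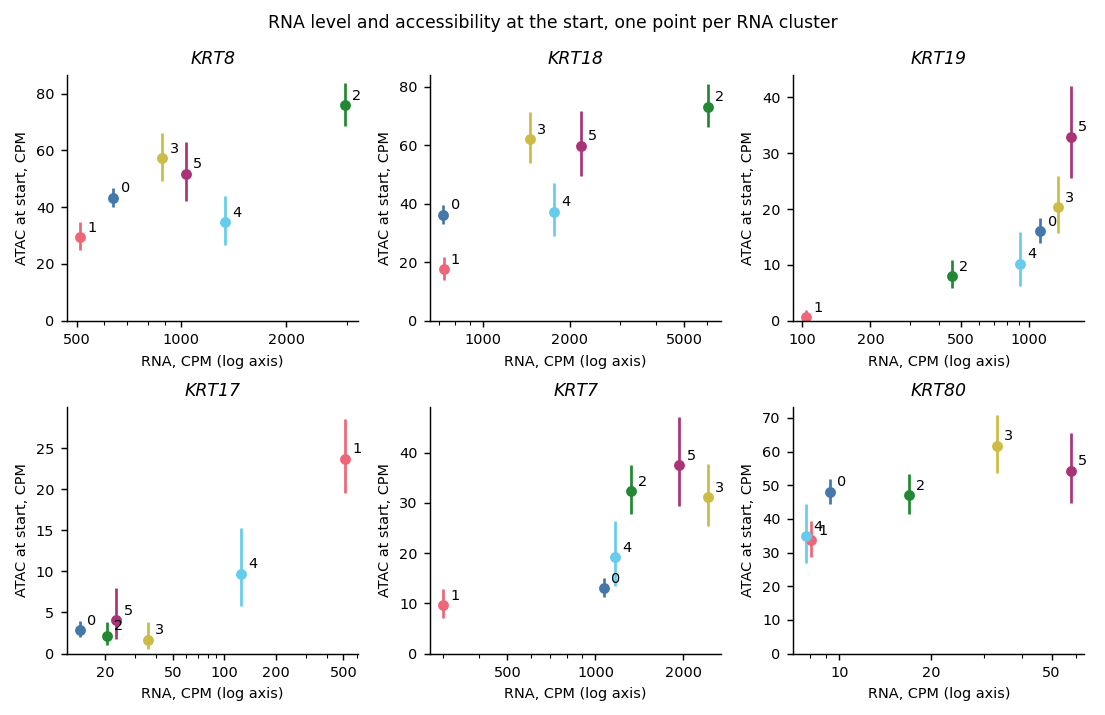
ATAC CPM within 1000 bp of the start (vertical axes, from 0, with exact Poisson 95% intervals computed on fragments) against RNA CPM (horizontal log axes) for 6 members, with 1 numbered point for each RNA cluster of the 80% library. The clusters of KRT19 rise in the same order on both axes, from 0.642 to 33.0 ATAC CPM, whereas KRT80 stays between 33.7 and 61.8.

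Counts on the chromosomes around the keratin genes differed between clusters as well. For peaks within 10 Mb of the chromosome 17 keratin genes, with the keratin region itself left out, the share of ATAC counts in cluster 2 over the mean of the other clusters was 0.59 on the log2 scale, and in RNA it was 0.24. Among the chromosome 17 keratin genes of at least 10 CPM, KRT19 and KRT15 were highest in cluster 5, KRT17 in cluster 1 and KRT10 in cluster 2. Around the chromosome 12 keratin genes the same ATAC measure was -0.08, -0.37, 0.14, 0.20, -0.45 and 0.43 in clusters 0 to 5. The value of cluster 5 was 0.05 with 2 Mb on either side, and that of cluster 2 was -0.14 in RNA. These measures do not separate gene copies from chromatin state, and their part in the keratin levels was not tested.

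The other keratin genes of at least 10 CPM behaved differently from each other. KRT4, a keratin of stratified mucosa, reached 21.6 CPM in cluster 2 and at most 2.82 CPM elsewhere, and 26.7 CPM in cluster 2 of the 20% library. KRT10, a keratin of differentiated epidermis, varied only from 128 to 278 CPM. Of 18 partner genes (desmosomal proteins, plakins and keratin-binding proteins) 15 reached 10 CPM. Of these, 9 varied at least 4 times between highest and lowest cluster, against 32.1% of all 12609 genes tested. PKP1 alone was at least 4 times the next cluster, against 5.86% of those genes. DSC2, a desmosomal cadherin, stood at 71.1 and 89.4 CPM in clusters 3 and 5 and at most 12.03 CPM elsewhere. PKP1, a desmosomal plaque protein, was 15.3 CPM in cluster 0 and at most 1.59 CPM elsewhere.

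Among 13 other intermediate filament genes 7 reached 10 CPM and 3 varied at least 4 times, against 32.1% of all genes tested. VIM, the mesenchymal filament protein, was highest in clusters 0 and 4, at 3792 and 4745 CPM, and lowest in cluster 5 at 785 CPM. The other mesenchymal markers were highest in other clusters. CDH2 at 53.9 CPM and FN1 at 696 CPM peaked in cluster 2, and ZEB1 at 206 CPM and SPARC at 265 CPM in cluster 1. NES was 38.2 CPM in cluster 4 and 0.942 CPM in cluster 1, and INA, a neuronal filament gene, reached 10.4 CPM in cluster 2. Of 15 factors known to act on keratin genes 13 reached 10 CPM. Of these, 9 varied at least 4 times, against 32.1% of all genes tested. None was at least 4 times its next cluster, against 5.86% of all genes tested. GRHL2, a regulator of epithelial genes, was 99.5 and 85.2 CPM in clusters 3 and 5 and at most 5.11 CPM elsewhere. TP63, the basal epithelial factor, was 65.7, 1.05, 84.4, 59.2, 10.3 and 7.15 CPM, and so was lowest in cluster 1, where KRT17 was highest.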

How the data were processed

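RNA and ATAC of nuclei from 5 mixed lines were read in 1 library of each kind for an 80% and a 20% portion. The authors deposited whole-number counts per barcode on GRCh38 (hg38), as UMIs per gene and ATAC counts per peak. Cells and peaks were already called, and the counts were not normalized. The authors' paper names Cell Ranger ARC 2.0.0 for making the read files, and Cell Ranger without a version for later processing. The gene annotation, the use of strand and the treatment of reads with several matches are not given in the sources used here. Of the ATAC values 90.1% were even, so 2 counts were taken as 1 fragment for intervals.

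Clusters were made from 2000 variable genes without keratins, 30 principal components and a graph of 20 neighbours (Louvain, Seurat 5.3.0 in R 4.3.3, the lowest resolution with at least 6 clusters of at least 1% of nuclei, seed 0). Scrublet (scanpy 1.11.5) gave the doublet calls, and doublets were kept, except in cluster 6. Counts were summed per cluster and given as CPM with exact Poisson intervals, and shares of nuclei with exact binomial (Clopper-Pearson) intervals (scipy 1.17.1). Of the 80% nuclei, 98.2% returned to their own cluster under the rule used for the 20% library. Starts are canonical transcript starts of GENCODE v44. All peaks lay within the chromosomes of the reference. Shares of nuclei were taken after thinning to 5000 UMIs, and shallower nuclei were left out. Depth was 95455518 UMIs and 63920767 ATAC counts in the 80% and 14346346 and 12850543 in the 20% libraries.

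Named were the 10 members, other keratins of at least 10 CPM, the 2 genes with the largest ratio of highest to lowest cluster in the partner, filament and factor lists, the 3 genes most similar to each of the 6 members with most UMIs, leading genes of clusters, and up to 3 peaks of a member with the most counts. VIM, the nuclei rich in KRT6A, their genes and the peaks printed as sequence were chosen after their values were seen. Members, lists and the number of clusters were chosen with earlier results of these data known. The counting rule was also run on simulated Poisson counts per cluster with folds set in advance. That simulation held no variation between nuclei, so it does not test the rule on counts as uneven as these. Long reads, cell line labels and the matrix of both portions together were not used here.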

Additional observations from a re-analysis of the deposited data

How the results depend on the processing

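With 1 library of each kind no replicate could be left out, and No paired analysis was possible because the groups hold 1 library each. Over 10 of 11 alternatives to the clusters, nuclei or scaling, every member kept its highest cluster, and in the 20% library KRT19 alone changed. The setting with cluster 6 included is 1 of those 10. Its highest cluster was still taken among clusters 0 to 5, so it could not differ. A further setting, not among those 11, left out the nuclei of at least 10 KRT6A UMIs for that gene alone. There KRT6A in cluster 0 fell to 2.18 CPM, below clusters 3 and 5, so it did not keep its highest cluster. The count of 2 members restricted to 1 cluster was 1 without doublet calls (6.22% of all genes tested), 1 with the mean of each nucleus (5.95%), 1 in the 20% library (5.74%) and 1 with cluster 6 included (2.30%). In those 4 settings KRT17 was lost, and KRT81 passed in every setting run. By construction the count was 5 at 2 times (14.7%) and 1 at 8 times (3.13%). The count of 10 members spread over clusters was 7 at 8 times (20.5%), 10 at 2 times (69.7%) and 10 in the 20% library (38.3%), and 9 or 10 in the other settings run. The count of 4 members with the same highest cluster in RNA and ATAC was 7 of 10 with peaks within 5000 bp or in the gene (50.5% of all genes), 2 of 8 by the share of nuclei (39.5%) and 2 of 7 in the 20% library (40.1%), and the cause was not tested. The type I share in clusters 1, 2 and 3 was 60.0%, 47.8% and 44.8% with the members alone, 64.0%, 49.9% and 45.4% in the 20% library and 70.0%, 15.5% and 36.9% without KRT8 and KRT18, and it was 45.5% in cluster 3 without doublet calls. Of 259 alternative values of single members, clusters or neighbourhoods 110 left the counting interval or the tolerance set for them, among them the chromosome 12 measure of cluster 2, which was -0.14 in RNA against 0.14 in ATAC. The options on cluster 6, on other transcript starts, on 5 ATAC CPM, on 2 Mb and on nuclei rich in KRT6A were added after seeing the data.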

Other observations

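In the 19 cluster 0 nuclei with at least 10 KRT6A UMIs, genes with at least 100 UMIs were ordered by their CPM relative to the 2309 cluster 0 nuclei without KRT6A, with 10 CPM added to both. After KRT6A itself came MIR205HG (883 against 10.7 CPM, in 19 of 19 nuclei), the host transcript of a microRNA, and FXYD3 (373 against 8.85 CPM). IGFBP7 followed at 606 against 49.5 CPM, AREG, an EGFR ligand, at 732 against 62.8 CPM, S100A2 at 3300 against 315 CPM, and TP63, the basal epithelial factor, at 587 against 58.8 CPM.

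In the 5 such nuclei of the 20% library, which were not used to choose these genes, MIR205HG was 1096 against 11.9 CPM, FXYD3 418 against 8.83 CPM, IGFBP7 678 against 36.0 CPM, S100A2 4700 against 262 CPM, AREG 951 against 60.0 CPM and TP63 778 against 54.4 CPM. KRT5 and KRT14, the keratin pair of basal cells, had no UMI in the 19 nuclei. KRT5 had 2 UMIs in 1 of the 5 nuclei. Of the 19 barcodes 1 was also called in the 20% library. The nuclei came from the same mixture in both libraries, and no test was made.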
